A study of Homo sapiens with 12 samples.

Results

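The p30-only regions were 2190 stretches of the genome. Each had an ATAC-seq peak in both lists of KO-52 cells given p30. None had a peak in the 4 lists of cells given p42 or the empty vector (EV). They were chosen by the presence and absence of peaks, out of 355051 common regions that resulted when the peaks of all 6 lists on chromosomes 1 to 22 and X were merged wherever they shared at least 1 bp. Common regions that passed this rule made up 0.617% of all. By the same rule 16258 regions (4.58%) were p42-only and 1983 (0.559%) were EV-only, so the p30-only set was close in size to the EV-only set. KO-52 is an acute myeloid leukemia line that carries mutations in both alleles of CEBPA, and this background was shared by the cells given p42, p30 or EV. The paper describes cells with mutations in both alleles as typically left with p30 as their only isoform. It calls the p30 given to KO-52 overexpression. The EV cells are therefore not cells known to lack p30, and p30-only does not mean open only where p30 is present. Each line was measured in DMSO and after tunicamycin (Tm, 2 µg/mL for 8 h), with 50000 nuclei in each of 2 replicates. For the methods' long-term expression, both isoforms were fused to ERT2, a receptor domain that enters the nucleus with 4-hydroxytamoxifen, and cells were sorted for GFP. The methods add 4-hydroxytamoxifen a day ahead of an experiment to cells with ERT2 fusions and to their EV controls. They also describe transient expression of isoforms without ERT2 in KO-52, by electroporation. The paper calls its ATAC-seq cells transduced with p30 or p42, the word its methods use for the long-term ERT2 lines. The plasmids of the ATAC-seq cells are not named in the sources used here.

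C/EBPα is a transcription factor of the basic leucine zipper family that drives myeloid differentiation. Its gene gives a full-length protein, p42, and a shorter isoform, p30, which starts further downstream, lacks part of the N-terminal activation domains and keeps the DNA-binding domain. N-terminal CEBPA mutations in leukemia leave p30 as the main product. ATAC-seq inserts sequencing adaptors into accessible DNA with the transposase Tn5, so that a peak marks a stretch where insertions pile up. Tunicamycin blocks N-glycosylation and sets off the unfolded protein response of the endoplasmic reticulum (ER).

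Each list was called on the pooled replicates of its condition. There was therefore no spread between replicates and no test between lines or treatments, and the values below are descriptions. Each peak's −log10 q is the caller's own significance against the local background of its list, and a tag is a read counted at the summit. Estimated depths ran from 22250000 to 29980000 tags a list, with 26530000 in p30 DMSO and 23080000 in p30 Tm, and the lists held 187113 to 253445 peaks on these chromosomes. A region without a peak was not called at this depth, which does not show that it was closed.

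The windows below show examples of these regions in sequence, chosen for their matches. They are 201 bases of hg38, plus strand, centred on the summit of the stronger p30 peak. They come from 5 of the 10 strongest p30-only regions and from 1 of the strongest at gene starts. The CPNE5 window, of the strongest region, holds none of the AP-1, RUNX and GATA letters that the comparisons turn on. The other windows were picked to show these letters. Capitals mark matches to any of the 24 motifs searched. Of the 10 strongest regions, 4 held none of these motifs in the window, 2 held AP-1, 3 RUNX and 2 GATA letters.
CPNE5 (chr6:36771116-36771316): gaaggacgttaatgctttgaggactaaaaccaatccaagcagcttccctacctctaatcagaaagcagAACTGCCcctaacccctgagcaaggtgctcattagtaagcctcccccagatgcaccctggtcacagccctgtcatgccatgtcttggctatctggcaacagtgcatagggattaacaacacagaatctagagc
GPR182 (chr12:56979818-56980018): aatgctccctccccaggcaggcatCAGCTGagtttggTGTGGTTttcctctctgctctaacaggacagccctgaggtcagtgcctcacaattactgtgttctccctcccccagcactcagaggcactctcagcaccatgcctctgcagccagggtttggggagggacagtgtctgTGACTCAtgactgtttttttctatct
NEDD4L (chr18:58297422-58297622): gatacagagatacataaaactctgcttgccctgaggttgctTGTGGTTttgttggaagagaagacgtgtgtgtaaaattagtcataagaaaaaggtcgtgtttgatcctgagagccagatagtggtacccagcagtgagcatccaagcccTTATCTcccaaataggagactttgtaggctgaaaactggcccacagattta
GFM1 (chr3:158679599-158679799): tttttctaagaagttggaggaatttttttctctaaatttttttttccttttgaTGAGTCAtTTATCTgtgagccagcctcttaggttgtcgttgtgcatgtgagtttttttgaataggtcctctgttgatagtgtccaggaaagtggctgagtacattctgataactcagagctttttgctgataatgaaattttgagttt
BMP6 (chr6:7781353-7781553): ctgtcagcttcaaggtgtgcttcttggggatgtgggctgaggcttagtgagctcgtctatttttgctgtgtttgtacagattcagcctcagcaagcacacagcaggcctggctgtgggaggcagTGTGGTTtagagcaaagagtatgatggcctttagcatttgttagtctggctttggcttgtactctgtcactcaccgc
ST3GAL5 (chr2:85862550-85862750): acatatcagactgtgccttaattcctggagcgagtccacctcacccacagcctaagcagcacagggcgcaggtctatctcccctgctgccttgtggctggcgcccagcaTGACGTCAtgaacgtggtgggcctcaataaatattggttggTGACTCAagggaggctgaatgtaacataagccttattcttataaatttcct

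Capitals in the GPR182 window spell the RUNX letters TGTGGTT 60 bp before the summit and the AP-1 letters TGACTCA 78 bp after it, the latter lying 8 bp beyond the end of the region. In the GFM1 window AP-1 (here read on the other strand) and GATA matches stood next to each other, 44 and 36 bp before the summit. BMP6 and NEDD4L carried RUNX matches, and the NEDD4L window also a GATA match, 16 bp beyond the end of the region. The only match in the CPNE5 window, the strongest region, was to the MYB letters AACTGCC, 29 bp before the summit. At ST3GAL5 a CRE match, TGACGTCA, lay 12 bp from the summit and an AP-1 match 53 bp from it, 10 bp beyond the end of the region.

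The p30-only regions were weak. Their −log10 q had a median of 3.44 in p30 DMSO (range 1.31 to 13.16) and of 3.73 in p30 Tm (range 1.30 to 13.08), against 6.79 and 7.24 over all peaks of these lists. The median member stood at the 24.9 percentile of its list in DMSO and at the 24.3 percentile in Tm. In tags the members had a median of 7 in DMSO (range 4 to 24) and of 6 in Tm (range 4 to 27), where all peaks had medians of 11. All peaks include those of the 114416 regions with peaks in all 6 lists, which the rule leaves out. The contrast with all peaks is therefore not independent of how the members were chosen. More tags were seen in DMSO in 983 regions, more in Tm in 758 and equal numbers in 449, with the DMSO list the deeper of the pair. A median region was 113 bp wide (range 60 to 736 bp), and 4 regions held more than 1 peak of a p30 list.

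The lower of a region's 2 values of −log10 q had a median of 2.68 and a maximum of 8.35. It reached 2 in 1804 regions and 5 in 67, and no region reached 10 in both lists, although 11 did so in either. At the weak end it was under 1.5 in 53 regions, close to the lowest value of 1.30 that the authors' threshold let into a list. The EV-only regions had nearly the same strength, with a median lower value of 2.77 and a maximum of 8.64. The p42-only regions were stronger, with a median of 3.52 and a maximum of 26.92.

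**Figure D1:**
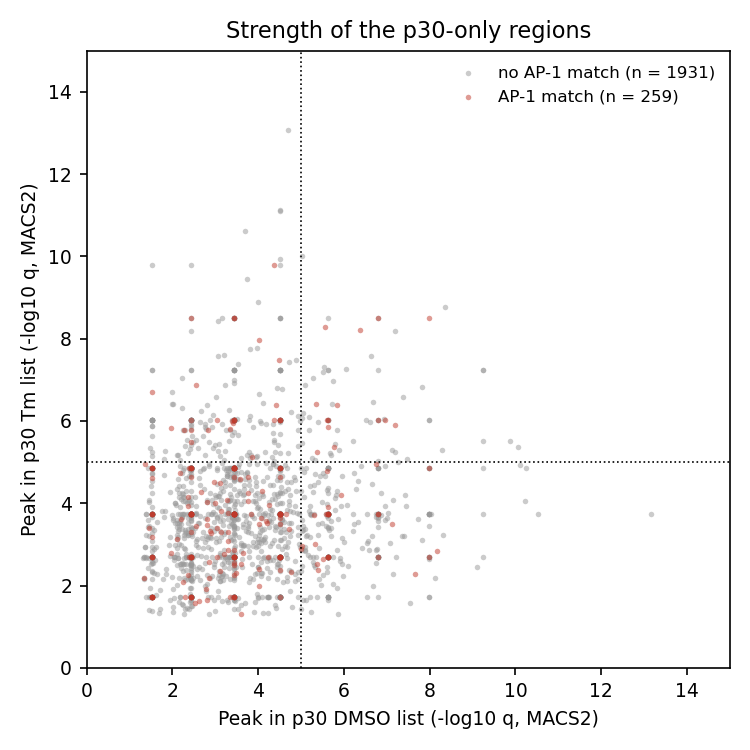
Each point is 1 of the 2190 p30-only regions. It is placed by the −log10 q of its peak in the p30 DMSO list (x axis) and the p30 Tm list (y axis). Regions with an AP-1 match within 100 bp of the summit are in red, and dotted lines are at 5. Only 67 regions lie at 5 or above in both lists, and points on a grid arise because the same whole number of tags over the same background gives the same value.

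Just outside the rule, 4487 regions had a peak in both p30 lists and in 1 of the other 4 lists. The additional list was EV Tm in 1464, p42 DMSO in 1300, EV DMSO in 1075 and p42 Tm in 648. The additional peaks were of like strength to those of the members, with median −log10 q from 3.53 in EV Tm to 3.83 in EV DMSO and a median of 7 tags in each. Only 4.78 to 8.02% of them had a −log10 q under 2. Of the 144930 regions with a peak in both p30 lists, 114416 had peaks in all 6 lists and 1.51% were p30-only.

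Regions with a peak in exactly 2 lists were counted for each pair. Of the 8 pairs of a p30 list with a list of another line, 4 had more such regions than the pair of p30 lists. Exactly the p30 DMSO and p42 DMSO lists shared 4893 regions, p30 DMSO and EV DMSO 2437, and p30 DMSO and EV Tm 2428, each more than the 2190 of the 2 p30 lists. Exactly p30 Tm and p42 DMSO shared 2214. The remaining 4 pairs of a p30 list with another line ran from 1286 to 1931. Of the lists, p42 DMSO was the longest and deepest, and the part of list length in these pair counts was not tested. Only the p30-only, p42-only and EV-only sets were counted again. Equal list sizes gave 2642, 9183 and 2684 of them, and a threshold scaled to depth gave 2179, 14142 and 2187. A further 19386 regions had a peak in p30 DMSO alone and 11316 in p30 Tm alone.

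**Figure D2:**
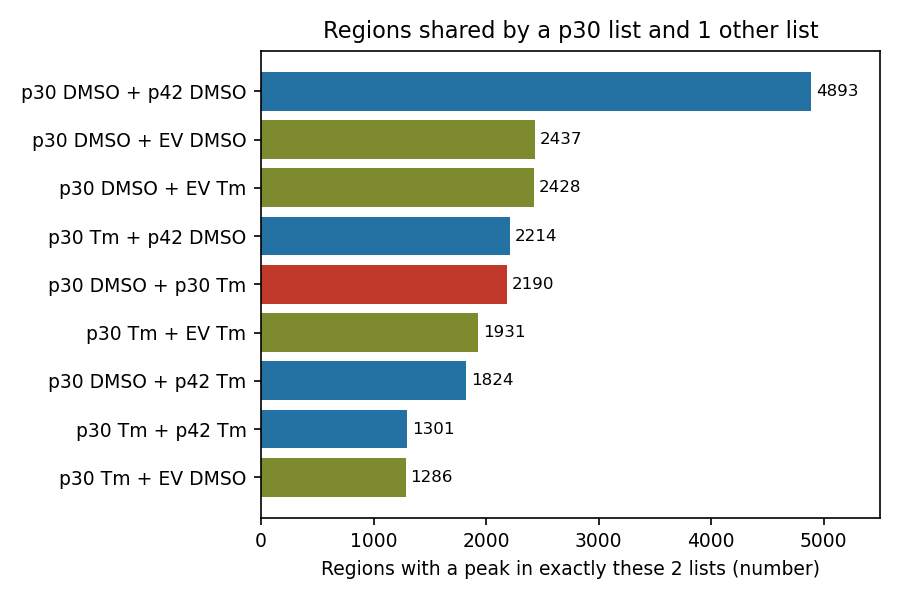
Bars give the number of regions with a peak in exactly the 2 lists named, one of them a p30 list (red, the other p30 list; blue, a p42 list; green, an EV list). The 2190 p30-only regions are the fifth of the 9 pairs, below p30 DMSO with p42 DMSO at 4893.

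The summits of the 2 p30 peaks lay a median of 26 bp apart in p30-only regions, with 95% of them within 101 bp. The medians were 25 bp in p42-only, 27 bp in EV-only and 26 bp in regions of exactly p30 DMSO and EV DMSO. Pairs of lists of the same line and of different lines thus had summits about equally far apart.

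Many p30-only regions lay beside other accessible DNA. Of the members, 30.8% (674; 95% Wilson interval 28.9 to 32.7, here and below for the counting of regions only) were within 500 bp of a region with a p42 or EV peak, and 6.76% (148; 5.78 to 7.89) within 100 bp. EV-only regions stood as close to peaks of the other lines, with 32.3% (30.3 to 34.4) within 500 bp. For p42-only regions the share was lower, 14.9% (14.4 to 15.5). The median gap was 1450.5 bp for p30-only, 1508 bp for EV-only and 2970 bp for p42-only regions. When a peak of another list had to cover at least 50% of a p30 region to count, 7833 regions had no such peak. Of 2167 neighbouring pairs of members on a chromosome, 27 started within 10000 bp of each other and 137 within 50000 bp. The spacing was not computed for other sets, so nothing is read from it about clustering.

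By place in the gene annotation the p30-only regions resembled other common regions, except at transcription starts. Introns held 48.7% of them (46.6 to 50.8), stretches between genes 33.4% (31.5 to 35.4) and exons 5.21% (4.35 to 6.22). The share within 1 kb of a transcription start site was 12.6% (277 regions; 11.3 to 14.1), below the 15.6% of all common regions, with intervals that did not overlap. It overlapped that of EV-only regions, 11.95% (10.6 to 13.5), and lay above that of p42-only regions, 9.82% (9.37 to 10.3). Without the members within 500 bp of a p42 or EV region, 8.71% (7.39 to 10.2) lay within 1 kb of a start. This filter was applied to members only, so the value cannot be set against the 15.6% of all common regions. The median distance to a start was 10249.5 bp, against 9994 bp over all common regions. A start itself lay inside 1.32% of p30-only regions, against 6.07% of all common regions. EV-only (1.56%) and p42-only regions (1.54%) were as low. These shares were not matched for width. The median width was 147 bp for all common, 113 bp for p30-only, 114 bp for EV-only and 139 bp for p42-only regions.

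Over chromosomes the members followed the common regions. For 20 of 23 chromosomes the share of all common regions lay inside the interval of the p30-only share. The exceptions were chromosome 13, with 7.12% of members (6.12 to 8.28) against 6.07% of all, chromosome 18, with 2.83% (2.21 to 3.61) against 2.19%, and chromosome 16, with 1.74% (1.27 to 2.37) against 2.48%. GC content of the 201 bases around the summit had a median of 45.3% in members and 45.8% in all common regions, a difference of -0.50 points that became 0.40 points over the whole region in place of the window.

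AP-1, the FOS and JUN dimers that respond to growth and stress signals, binds the letters TGACTCA. A match lay within 100 bp of the summit in 259 p30-only regions, 11.8% (10.5 to 13.2). All common regions had 9.48% (9.39 to 9.58) and p42-only regions 5.74% (5.40 to 6.11), both below the p30-only interval. The EV-only regions had more, 18.5% (16.9 to 20.3). Regions of exactly p30 DMSO and EV DMSO had 13.1% (11.8 to 14.5), an interval that overlapped that of the p30-only regions, and those of exactly p30 DMSO and p42 DMSO had 7.66% (6.95 to 8.44), which did not. Thus an AP-1 share above that of all common regions was also seen in regions that EV and p30 lists shared.

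Within the p30-only set, AP-1 matches were found in 13.2% (10.9 to 15.8) of the 730 strongest regions, 11.4% (9.27 to 13.9) of the 730 in the middle and 11.0% (8.89 to 13.4) of the 730 weakest, with intervals that overlapped. Among the 67 regions whose −log10 q reached 5 in DMSO and in Tm, 14 (20.9%; 12.9 to 32.1) had a match. Members within 1 kb of a start held AP-1 letters in 11.9% (8.61 to 16.3), where all common regions at starts had 6.46% (6.26 to 6.67). Further out the shares were 11.8% (10.4 to 13.3) and 10.04% (9.93 to 10.1). EV-only regions had 14.8% (10.8 to 19.8) within 1 kb of a start, overlapping the members, and 19.0% (17.2 to 20.9) further out. The match nearest to the summit lay a median of 25 bp away in p30-only and in EV-only regions and 36 bp away in p42-only regions.

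C/EBP letters were scarce. The palindromes TTGCGCAA and TTGCACAA were found in 13 p30-only regions, 0.594% (0.347 to 1.01), against 1.58% (1.54 to 1.62) of all common and 6.03% (5.67 to 6.40) of p42-only regions. The EV-only share, 0.454% (0.239 to 0.860), overlapped that of the p30-only regions. In the 67 strongest members there was no match, which allows a share of up to 4.48% by 3 counts of the total. The Wilson interval reaches 5.42%. With the looser letters TTGCNNAA, members had 8.26% and all common regions 13.1%. The composite CEBP:AP1 letters ATGTTGCAA or GTGTTGCAA occurred in 6 members (0.274%; 0.126 to 0.596), against 0.667% (0.641 to 0.694) of all common and 2.52% of p42-only regions. The EV-only share of these letters, 0.151% (0.0515 to 0.444), overlapped that of the members. ATF4, the effector of the integrated stress response that pairs with C/EBP proteins, had its letters TGATGCAA in 4 members (0.183%; 0.0711 to 0.469), against 1.25% of all common and 3.54% of p42-only regions. Together, CEBP, CEBP:AP1, ATF4 and PAR bZIP (TTACGTAA) letters were in 1.10% (0.738 to 1.63) of p30-only, 1.11% (0.734 to 1.67) of EV-only, 3.59% (3.53 to 3.65) of all common and 12.4% of p42-only regions.

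RUNX letters, bound by the RUNX1 factor of blood stem and progenitor cells, were in 255 members, 11.6% (10.4 to 13.1). This was above all common regions (9.28%; 9.18 to 9.37) and p42-only regions (7.36%; 6.97 to 7.77), and overlapped the EV-only share of 12.1% (10.7 to 13.6). In p30-only regions 44.7% of the RUNX matches lay within 25 bp of the summit, in EV-only regions 34.7% and in p42-only regions 36.8%. These shares are of 255, 239 and 1197 regions with a match. No interval was computed for them, so no order between the sets is drawn. AP-1 and RUNX letters stood together in 34 members, 1.55% (1.11 to 2.16), against 0.741% of all common and 1.46% (1.02 to 2.09) of EV-only regions.

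GATA and PU.1 letters differed, as AP-1 letters did, between p30-only and EV-only regions. GATA, the erythroid and megakaryocytic factor family, had its letters AGATAA in 252 members, 11.5% (10.2 to 12.9), an interval that held the 11.3% of all common regions and lay under the 19.8% (18.1 to 21.6) of EV-only regions. PU.1, the ETS factor of myeloid cells, had GAGGAAGT in 141 members, 6.44% (5.48 to 7.54), against 4.44% (3.62 to 5.44) of EV-only and 6.86% of all common regions. Regions of exactly p30 DMSO and EV DMSO lay between for GATA, with 14.0% (12.6 to 15.4).

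Among the other motifs, STAT letters (TTCCNGGAA) were in 18 members, 0.822% (0.521 to 1.30), above all common regions at 0.440% (0.419 to 0.462) and overlapping EV-only regions at 0.454% (0.239 to 0.860). Letters of CTCF, the insulator protein, were in 0.639% (0.381 to 1.07) of members and 2.06% of all common regions, and those of SP/KLF (GGGGCGGGG) in 0.365% (0.185 to 0.719) and 1.74%. The intervals of p30-only and all common regions overlapped for 16 of the 24 motifs, with members higher for 3 (AP-1, RUNX, STAT) and lower for 5 (CEBP, CEBP:AP1, ATF4, CTCF, SP/KLF). Against EV-only regions 21 overlapped, and the exceptions were AP-1 and GATA, lower in members, and PU.1, higher. Against p42-only regions 15 overlapped. A match is a stretch of letters, not a bound site.

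**Figure D3:**
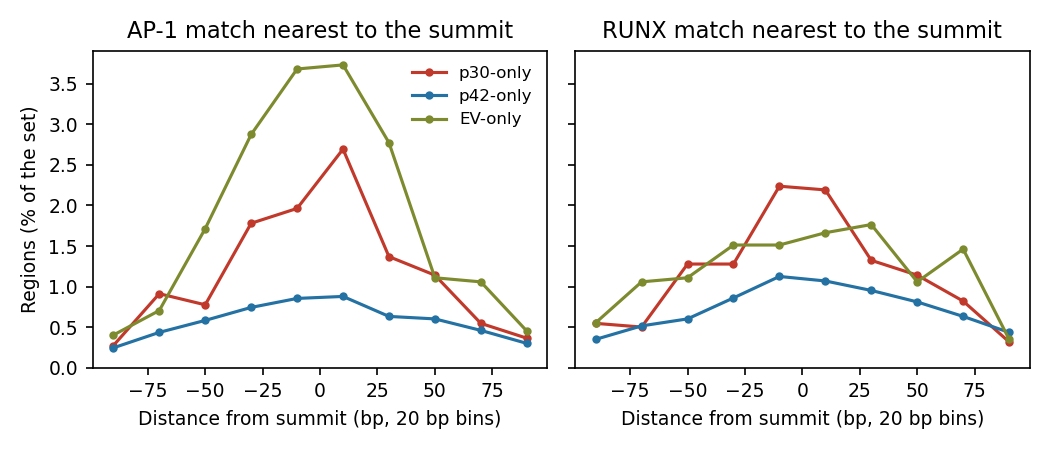
Lines give, in bins of 20 bp, the percentage of regions of a set whose nearest AP-1 (left) or RUNX (right) match lies at that distance from the summit. In p30-only regions both profiles are highest in the bins next to the summit, at 2.69% for AP-1 and 2.24% for RUNX.

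The 10 strongest p30-only regions, ranked by the lower −log10 q, were spread over 9 chromosomes and had no gene family in common. The first lay in an intron of CPNE5, a copine that binds membranes in response to calcium, at chr6:36771181-36771290, with −log10 q of 8.35 in DMSO and 8.76 in Tm (15 and 14 tags). The region 14507 bp from the start of GPR182, a G-protein-coupled receptor, at chr12:56979834-56979985 had 8.00 and 8.50, from 10 tags in each list. It lay 104 bp from a region with a p42 or EV peak. Introns of DLC1, a tumor suppressor, and of NEDD4L, a ubiquitin ligase, each held a region with 9.25 and 7.24 (11 and 9 tags). Introns of GFM1, a mitochondrial translation elongation factor, and BMP6, a ligand that controls iron uptake through hepcidin, held regions with 6.79 and 8.50 (9 and 10 tags). SV2C, a synaptic vesicle protein, was 53423 bp and KATNAL1, a katanin-like ATPase that severs microtubules, 41913 bp from the remaining regions outside genes.

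ZNF823 and APH1A completed the 10 and also led the regions at starts of protein-coding genes, of which there were 194 at 193 genes. The region of ZNF823, a zinc finger gene, lay 671 bp from the start at chr19:11738075-11738211 with 7.20 and 8.20 (16 tags in each list). That of APH1A, a subunit of γ-secretase, lay 93 bp from the start at chr1:150268352-150268473 with 7.83 and 6.82 (16 and 14 tags). PPARG, the nuclear receptor of adipocytes and macrophages, had a region over an annotated start at chr3:12288942-12289063, with 10.06 in DMSO and 5.38 in Tm (13 and 8 tags). PPARGC1A, a coactivator of mitochondrial biogenesis, had one over a start at chr4:23882033-23882117 with 5.62 and 7.24 (8 and 9 tags). ST3GAL5, the synthase of ganglioside GM3, had 6.79 and 6.02 at chr2:85862564-85862690, and 8151 bp separated it from the nearest p42 or EV region.

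The region 281 bp from a start of HOXB8, a homeobox gene of myeloid progenitors, had 5.25 and 5.09 (13 and 12 tags). TBC1D8, NUB1 and BTN3A2 had lower values from 5.03 to 5.52. Of these 9 regions at starts, 6 adjoined DNA that was also called in other lines, with gaps of 142 bp (APH1A) to 298 bp (TBC1D8) to a region with a p42 or EV peak.

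Members were thinly spread over genes. The nearest protein-coding gene was one of 1818, of which 1550 had a single p30-only region, 204 had 2 and 64 had 3 or more. The genes with the most were PRR20A (8 regions), KLHL1, PCDH9 and SPRY2 (7 each), TRPS1 (6), and ADGRL2, CSMD3, FAM135B, GPC5 and SLITRK5 (5 each). Of these 10 genes, 6 are on chromosome 13 and 3 on chromosome 8, and their regions lay 22112 to 1872274 bp from the start. Many common regions had the same nearest gene, 336 for PRR20A, 815 for PCDH9 and 851 for GPC5, so that 2.38%, 0.859% and 0.588% of them were p30-only, beside 0.617% over the genome. FAM135B had the highest share, 5 of 143 regions (3.50%). PRR20A belongs to a cluster of near-identical copies, where the choice of the nearest copy is uncertain.

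Regions around blood and stress genes were p30-only about as often as regions elsewhere. The 11 lists of 172 genes were the nearest genes of 4872 common regions, of which 29 (0.595%; 0.415 to 0.854) were p30-only, beside 0.617% of all. The lowest share by list was 0 of 89 regions for granule genes, which allows up to 3.37% by 3 counts and 4.14% by the Wilson interval. The highest was 2.04% (3 of 147, 0.696 to 5.83) for the C/EBP and PAR bZIP genes. The intervals of 10 of the 11 lists held 0.617%, and that of the C/EBP and PAR bZIP genes, which rests on 3 regions, began above it. The genes named next outside the rule's distance of 1 kb and the gene body were named after their values were seen.

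Among transcription factors of the AP-1 and C/EBP families, FOS, the immediate early AP-1 subunit, was nearest to 1 p30-only region of the 414 around AP-1 family genes. It lay 35207 bp from the start at chr14:75315400-75315554, with 6.79 in DMSO and 3.73 in Tm (9 and 6 tags), and held PU.1 and no AP-1 letters. CEBPB was nearest to 2 regions, 91325 and 127494 bp away in introns of the noncoding genes PELATON and LINC01271, with lower values of 1.32 and 3.31. HLF, a PAR bZIP factor of blood stem cells, was nearest to 1 at 13803 bp, with 2.44 and 6.02.

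Myeloid transcription factors had 4 members among 870 regions, with IRF4, KLF4, ZEB2 and MYB as the nearest coding genes. Those of IRF4, KLF4 and ZEB2 lay far off, 82806, 261473 and 167786 bp from the start. The region in an intron of MYB, a factor of progenitor proliferation, had 8.13 in DMSO and 2.18 in Tm (14 and 6 tags), so that it was strong in 1 treatment only. Stem cell and leukemia regulators had 4 of 802. Of these, PRDM16 (3.44 and 3.71), MSI2 (5.27 and 2.68) and MECOM (1.53 and 3.73) held theirs in introns, and KIT, the receptor of stem cell factor, was 70744 bp from a region with an AP-1 match and values of 3.44 and 6.02.

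For the lineage genes, erythroid and megakaryocyte genes had 2 of 197 regions. FLI1, a megakaryocytic ETS factor, held a region in an intron at chr11:128731109-128731256 with 7.18 and 5.26 (17 and 14 tags), the strongest at any listed gene, and PF4, a platelet chemokine, had one 68 bp from its start with 3.44 and 2.60. Lymphoid genes had 6 of 1030, in introns of TOX (2 regions) and EBF1 and nearest to GATA3, LEF1 and BCL11A. The regions of GATA3, LEF1 and BCL11A lay 752970, 186383 and 116426 bp from the start. Monocyte genes had 2 of 263, both nearest to FCGR1A at 18063 and 34871 bp, whose near-identical copies make the placement of reads uncertain. CSF2RA, the GM-CSF receptor chain, had the only region of the 277 around growth factor receptors, 894 bp from a start in the pseudoautosomal part of X, with an AP-1 match and values of 3.86 and 5.12 (8 tags in each list).

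Inflammatory mediators had 2 of 396, both nearest to TNFAIP3, an inhibitor of NF-κB signalling, at 34010 and 111646 bp, with lower values of 3.88 and 5.18. ER stress and integrated stress response genes had 4 of 387. EIF2AK3, which encodes the ER stress kinase PERK, held its region in an intron with 2.44 in DMSO and 4.85 in Tm (5 and 7 tags). The others were nearest to GADD45A (3.26 and 4.67), VLDLR (2.44 and 3.73) and DNAJB9 (4.50 and 1.72). They lay 34286, 213411 and 520668 bp from the start of these genes. Since the rule asks for a peak in both treatments, these regions cannot describe DNA that opened or closed with tunicamycin.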

How the data were processed

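ATAC-seq libraries of KO-52 cells came from 3 lines (p30, p42 and empty vector) under 2 treatments, in duplicate. The authors used Trim Galore 0.6.6 for trimming, Bowtie2 2.4.4 for alignment against hg38, Picard to discard duplicates and MACS2 to call 1 peak list per condition from its pooled replicates. A shift for the Tn5 cut, a filter on mitochondrial reads and a control track are not given in the sources used here. The deposited fold enrichment is a ratio of summit pileup to local background. The deposited −log10 p- and q-values compare a summit with the background of its own list, and the summit is given as an offset in bp. None is normalized between lists, so the values served to rank and filter. Peaks ended within the chromosomes of the hg38 reference used here.

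Tags and background at each summit were solved from the fold and the p-value, which gave whole tags for 100% of peaks. Depth was estimated as the lowest background times 2700000000 bp over the shortest peak. Peaks on chromosomes 1 to 22 and X were merged at 1 bp overlap. Genes came from GENCODE release 44. Motifs were exact letters on both strands within 100 bp of the summit of the strongest peak, and CEBP:AP1, ATF4 and AP-1 letters may overlap. No comparison had a test, since each condition had a single pooled list. Intervals are 95% Wilson intervals and cover the counting of regions, not library or biological variation. Computation used Python 3.11.15, numpy 2.4.6, pandas 2.3.3 and scipy 1.17.1, checked on simulated peaks.

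Named genes were the nearest protein-coding genes of the 10 strongest regions by the lower −log10 q, the 10 genes nearest to most regions, the 10 strongest regions within 1 kb of a coding start, and genes of the 11 lists with a region within 1 kb of the start or inside the gene. The members and lists were chosen with earlier results of these data known. One of the 10 strongest regions within 1 kb of a coding start is not reported here. Repeat content was not computed, as the reference used here carries no repeat marks.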

Additional observations from a re-analysis of the deposited data

Results flagged for a closer look

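Outside chromosomes 1 to 22 and X, which the rule does not cover, 4 of 1184 common regions were p30-only (0.338%, 95% Wilson interval 0.131 to 0.865), an interval that holds the 0.617% of chromosomes 1 to 22 and X. There were 1 EV-only (0.0845%, 0.0149 to 0.477) and 50 p42-only regions (4.22%, 3.22 to 5.52). The count is listed only because it exceeds that of the EV line. The p30-only and EV-only intervals overlapped, and with 1 list per condition the difference was not tested.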

How the results depend on the processing

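Of 40 alternative settings, 26 left a value within its interval (or a count within 1.5 times), 13 moved it and 1 turned its direction. The number of p30-only regions was 67 where the −log10 q reached 5 and 0 where it reached 10 in both p30 lists, and 7833 when another list's peak had to cover 50% of the p30 region. It lay between 1516 and 2642 under the other 7. The share within 1 kb of a start was 9.01% with peaks within 500 bp merged and 8.71% for regions more than 500 bp from p42 or EV regions, a setting chosen after seeing the data. It was 8.86% with protein-coding starts only, and by construction 7.85% within 500 bp and 19.4% within 2 kb. The AP-1 share minus that of all common regions, 2.35 points, was 11.41 points where the −log10 q reached 5 and 3.98 points more than 500 bp from p42 or EV regions. These filters, here, for CEBP and for the share at starts, were applied to members only, while all common regions stayed unfiltered. The CEBP difference, -0.98 points, was -1.58 points where the −log10 q reached 5, -1.26 points with 200 bp on each side and -4.84 points with the looser letters. AP-1 stayed above all common regions in every setting run. CEBP stayed below them in every setting but the −log10 q of 5. There 0 of 67 regions allows up to 4.48% (5.42% by the Wilson interval) and gives no order. The GC difference turned from -0.50 to 0.40 points over the whole region. The cause was not tested. No paired analysis was possible because the replicates were pooled in each list, and for the same reason no replicate could be left out.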
